A study of Mus musculus with 8 samples.

Results

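Chemokine, interleukin and TNF family genes and their receptors were examined by RNA sequencing of immortalized mouse embryonic fibroblasts (MEFs). Genes were taken by name: Ccl, Cxcl or Cx3cl followed by a number, Il followed by a number, and Tnfsf or Tnfrsf followed by a number. A gene also had to reach 1 TPM (a transcript level corrected for gene length and for the size of the library) in at least 4 of the 8 libraries. The names matched 153 of the 49315 genes listed, and 48 of them passed the filter, among 14272 genes that passed it in all. All 48 are protein coding, and 42 were at 1 TPM or more in every library. Of the 48, 4 passed through 1 group only (Ccl6 and Tnfrsf9 through the reconstituted cells, Il33 and Cxcl15 through the knockout cells), so those 4 had to differ and lend no weight to the counts. Of the 105 genes below the filter, 23 were at 0 in all 8 libraries and 66 had a highest value under 0.5 TPM. Of the 82 above 0 in at least 1 library, 9 had groups that did not overlap, beside 6.57% of all genes below the filter and above 0.

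Both groups carry the Opa1-/- genotype and the label gives no treatment. The first group is the Opa1-/- MEFs as such (called knockout here), and the second is Opa1-/- + OPA1, the same genotype with OPA1 put back (called reconstituted here), with 4 libraries in each. Unmodified MEFs are not analysed here, and the labels give neither the promoter that drives OPA1 nor whether the lines are clones, so a line difference and an effect of OPA1 cannot be told apart. OPA1, a dynamin-related GTPase inside mitochondria, is needed to fuse their inner membranes and to keep cristae in shape, and the series asks how its loss changes the transcriptome. Whether the 4 libraries of a group came from separate cultures is not in the labels, so p-values measure only how far these libraries spread, and that spread may be technical.

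Chemokines are small secreted proteins that draw leukocytes along a gradient, and are classed by the spacing of their first cysteines (CC, CXC, CX3C). Interleukins act through receptor chains that signal by MyD88 and NF-kappaB (the interleukin-1 family) or by JAK kinases and STAT factors (most others). TNF family ligands act on receptors that recruit TRAF adaptors or death-domain adaptors, and many lead to NF-kappaB. Fibroblasts are known as a source of chemokines after TNF, interleukin-1 or microbial stimuli, and carry receptors for several of these signals.

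Depth and identity were checked before the comparison. The libraries held an estimated 52.9 M to 57.8 M assigned reads (M, 1000000 reads). Opa1 itself was at 14.8, 14.7, 13.7 and 12.5 scaled TPM in the knockout libraries and at 15.6, 14.6, 14.5 and 14.5 in the reconstituted ones (difference -0.09, SE 0.06, adjusted p = 0.306), so its gene-level value does not check the labels. Of 12 fibroblast markers 10 passed the filter, with Vim at 1412 ± 108 and 1368 ± 12.0 scaled TPM, while Pdgfra (0.283 to 0.458 and 0.783 to 0.853) and Lum (at most 0.104) did not. Of 14 leukocyte and macrophage markers 3 passed: Cd14, Cd68 (4.25 ± 2.24 and 4.46 ± 1.04) and Fcer1g (1.84 ± 0.316 and 1.33 ± 0.266). The others were under 1 scaled TPM, the highest being Csf1r at up to 0.867, with the pan-leukocyte gene Ptprc at most 0.0174 and the macrophage gene Adgre1 at most 0.0172 in any library. The summed leukocyte and macrophage list ran from 43.0 to 54.8 in the knockout and from 59.6 to 63.9 in the reconstituted libraries, of which most was Cd14 (43.5 ± 6.34 and 54.4 ± 3.45).

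Levels below are scaled TPM (TPM brought to a common scale between libraries), as mean ± SD with n = 4 libraries per group. Where 4 values are given for a group they are libraries 1 to 4. Differences are knockout minus reconstituted in log2(scaled TPM + 1), which understates the change of low genes. Adjusted p-values are from limma-trend, two-sided, with Benjamini-Hochberg adjustment over all 14272 genes. Genes under an adjusted p of 0.05 are called higher or lower.

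Of the 48 genes, 8 were higher in the knockout cells, 13 were lower, and 27 did not pass. That is 43.8% called, beside 33.0% of all tested genes (16.3% higher and 16.8% lower). Without the 4 genes that passed the filter through 1 group only, 6 of 44 were higher and 11 lower, or 38.6% called, beside 32.3% of all tested genes counted the same way. In 23 of the 48 the libraries of the groups did not overlap, beside 36.3% of all tested genes. Of the 48, 13 were called at 0.5 or more in size, beside 7.16% of all tested genes, and 6 at 1 or more, beside 1.26%. Without the 4 genes, 9 of 44 (20.5%) were called at 0.5 or more, beside 6.21%, and 5 (11.4%) at 1 or more, beside 1.01%. The median difference was -0.08, against -0.00 over all tested genes, and the range was -1.66 to 1.86. The 6 largest were Il18rap, Il34, Ccl9, Il1rl1 and Ccl2, all lower, and Cxcl15, higher. In bulk RNA, fewer cells that express a gene and less RNA of it per cell cannot be told apart.

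**Figure D1:**
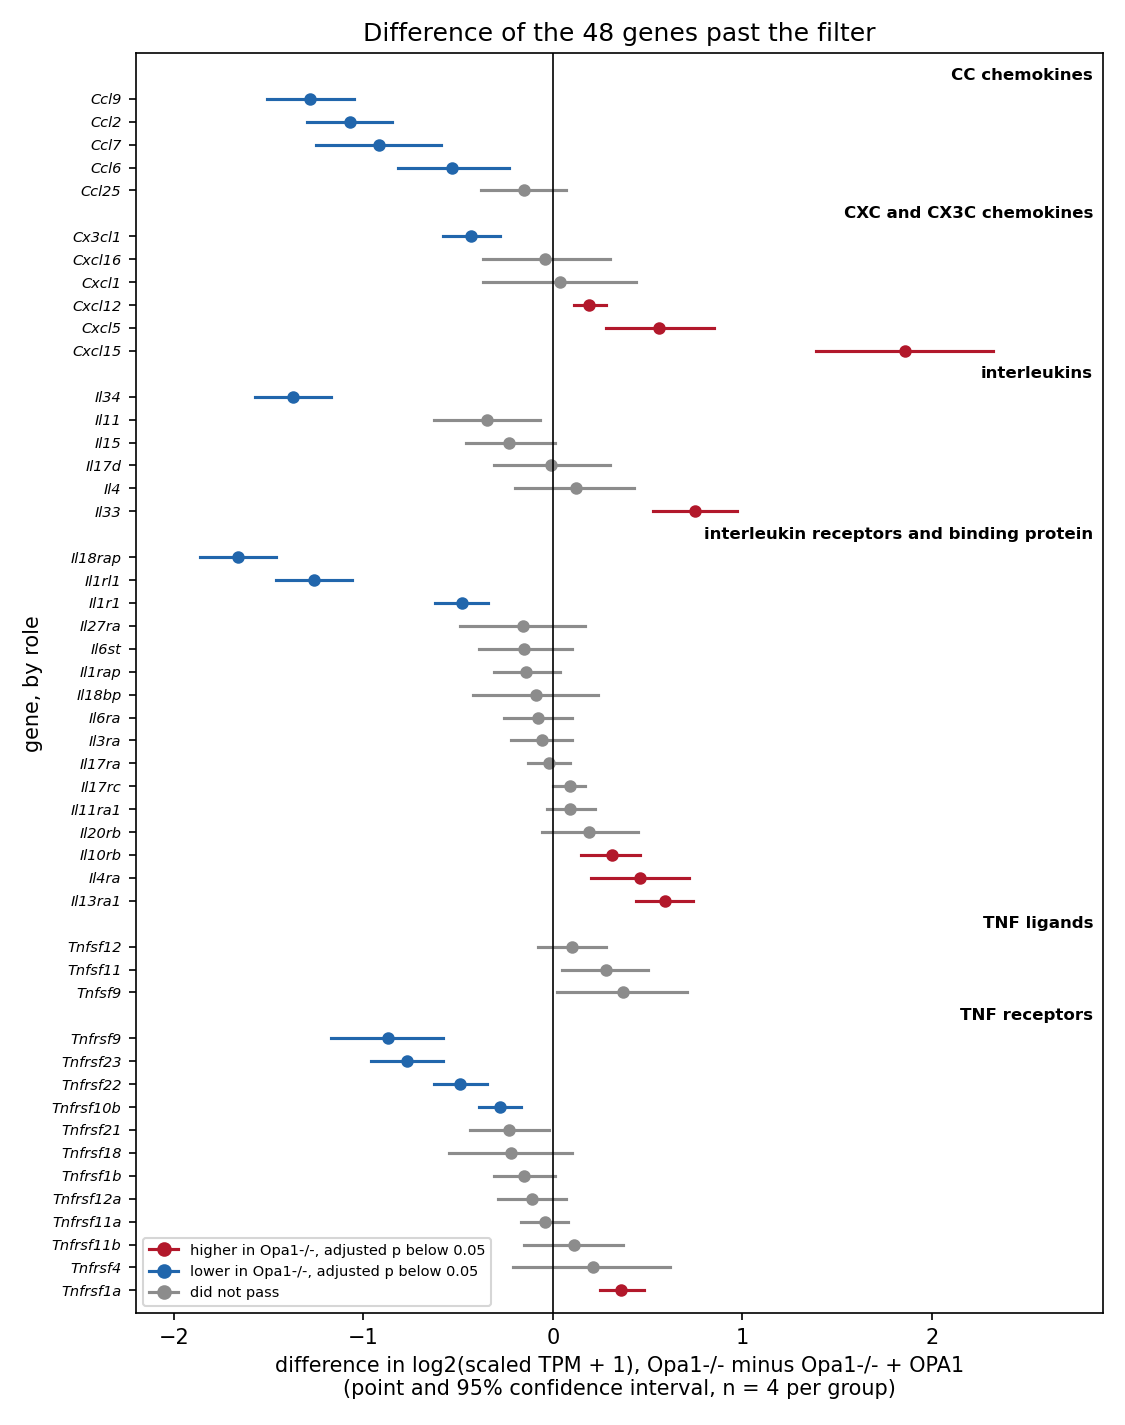
Difference of each of the 48 genes (x axis, log2(scaled TPM + 1), Opa1-/- minus Opa1-/- + OPA1) by role (y axis). Points are the fitted differences and bars the 95% confidence interval, with 4 libraries per group. CC chemokines lie on the lower side, while the other roles hold genes on both sides of 0 or, for TNF ligands, none that was called.

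Of 5 CC chemokines 4 fell and none rose in the knockout cells, beside 16.8% of all tested genes that fell, and the median difference was -0.92. Without Ccl6, which passed the filter through the reconstituted group only, 3 of 4 fell. Ccl2, the main monocyte attractant acting on CCR2, was at 27.6, 30.4, 27.0 and 37.2 scaled TPM in the knockout and at 58.4, 64.8, 70.2 and 66.9 in the reconstituted libraries. Every knockout library lay below every reconstituted one, and the group means were 30.6 ± 4.66 and 65.1 ± 5.00 (difference -1.07, SE 0.10, adjusted p = 0.000101). Ccl7, a second CCR2 ligand and the most abundant CC chemokine, was at 29.8, 37.7, 37.9 and 43.7 against 61.4, 58.8, 84.2 and 83.1. Again the groups did not overlap, at means of 37.3 ± 5.74 and 71.9 ± 13.6 (difference -0.92, SE 0.15, adjusted p = 0.00160).

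Ccl9, a mouse chemokine that acts on CCR1, was at 5.31, 5.97, 7.51 and 7.34 in the knockout and at 16.1, 16.2, 18.4 and 18.3 in the reconstituted libraries. The means of 6.53 ± 1.07 and 17.2 ± 1.24 gave the largest fall among the chemokines (difference -1.28, SE 0.10, adjusted p = 5.26e-05). In both groups libraries 3 and 4 were above libraries 1 and 2. Ccl6, its neighbour and also a CCR1 ligand, was low, at 0.495, 0.862, 0.392 and 0.660 against 1.11, 1.62, 1.18 and 1.32 scaled TPM, or a mean of 20 and 44 reads. The groups did not overlap (difference -0.53, SE 0.13, adjusted p = 0.0136), but without both libraries numbered 3 the adjusted p was 0.0606. Ccl25, known as the thymic and gut chemokine for CCR9, was at 3.01 ± 0.519 and 3.44 ± 0.209 and did not pass (adjusted p = 0.275). It shares 204 exon bases with Elavl1 on the other strand, and no source used here says whether strand was kept.

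The promoters of the genes were searched for 3 motifs on both strands over the 250 bases before each RefSeq start (build GRCm38.p6). The motifs were the NF-kappaB consensus, the AP-1 site TGANTCA and the C/EBP-ATF response element TGATGNAA. The RefSeq table matched 34 of the 48 genes, with 42 starts. The NF-kappaB consensus was in 7.25% of all 32851 promoters and in 4 of the 42 of these genes (9.52%), a share near the background. They were those of Ccl9 and Cxcl1 and the second starts of Il1r1 and Tnfrsf9. TGANTCA was in 6.75% of all promoters and in 3 of the 42 (7.14%), those of Ccl9, Il11 and Tnfrsf9. TGATGNAA was in 3.45% of all promoters and in that of Il20rb. A match is a description of letters, not a shown site of binding. The windows of a CC chemokine that fell, a TNF receptor that fell and a CXC chemokine that did not pass are printed, since all 3 hold the NF-kappaB consensus. They run 5′ to 3′ on the gene's strand. Tnfrsf9 passed the filter through the reconstituted group only, so it had to differ, and no contrast of motif with direction is drawn. Capitals mark the matches: the NF-kappaB consensus in each, and TGANTCA in Ccl9 (the left block) and Tnfrsf9 (the right block).
Ccl9, chr11:83578637-83578886, minus strand: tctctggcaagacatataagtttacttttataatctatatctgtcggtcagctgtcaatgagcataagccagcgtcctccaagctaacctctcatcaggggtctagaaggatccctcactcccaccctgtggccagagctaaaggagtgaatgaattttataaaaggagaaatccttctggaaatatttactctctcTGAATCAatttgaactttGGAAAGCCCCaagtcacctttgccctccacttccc
Tnfrsf9, second start, chr4:150927749-150927998, plus strand: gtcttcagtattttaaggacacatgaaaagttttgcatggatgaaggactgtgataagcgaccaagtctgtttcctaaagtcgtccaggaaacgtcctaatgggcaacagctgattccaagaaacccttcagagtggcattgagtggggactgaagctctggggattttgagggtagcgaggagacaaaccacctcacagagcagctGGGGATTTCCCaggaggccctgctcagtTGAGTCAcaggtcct
Cxcl1, chr5:90890995-90891244, plus strand: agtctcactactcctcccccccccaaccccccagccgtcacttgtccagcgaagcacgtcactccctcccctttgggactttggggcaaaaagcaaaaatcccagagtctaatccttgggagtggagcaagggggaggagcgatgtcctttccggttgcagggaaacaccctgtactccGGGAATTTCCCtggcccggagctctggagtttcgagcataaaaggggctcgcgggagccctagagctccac

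Among the CXC and CX3C chemokines, 3 of 6 rose and 1 fell, beside 16.3% and 16.8% of all tested genes, with a median difference of 0.11. Without Cxcl15, which passed the filter through the knockout group only, 2 of 5 rose and the median was 0.04. Cxcl15, a chemokine known from lung epithelium, was at 4.05, 4.05, 7.13 and 6.81 in the knockout and at 0.443, 1.24, 0.574 and 0.859 in the reconstituted libraries. The lowest knockout library was above the highest reconstituted one, at means of 5.51 ± 1.69 and 0.779 ± 0.354, or 218 and 31 reads (difference 1.86, SE 0.20, adjusted p = 0.000251). It was the largest rise of the 48 genes. Cxcl5, a neutrophil attractant acting on CXCR2, was at 2.54, 2.61, 3.75 and 3.73 against 1.54, 1.68, 1.97 and 1.99. It too did not overlap between groups (means 3.16 ± 0.676 and 1.79 ± 0.219, difference 0.56, SE 0.13, adjusted p = 0.00882). Both genes were higher in libraries 3 and 4 than in 1 and 2 of the knockout group.

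Cxcl12, the stromal ligand of CXCR4 and the most abundant chemokine in these cells, was at 196, 195, 203 and 198 in the knockout and at 182, 176, 168 and 166 in the reconstituted libraries. The groups did not overlap, but the difference was small (means 198 ± 3.53 and 173 ± 7.34, difference 0.19, SE 0.04, adjusted p = 0.00527). On TPM as deposited, with no scaling, its adjusted p was 0.0505. Cx3cl1, a membrane-bound chemokine for CX3CR1, fell from 11.5 ± 0.601 in the reconstituted to 8.26 ± 0.646 in the knockout cells (difference -0.43, SE 0.07, adjusted p = 0.00123). Cxcl1, a further CXCR2 ligand, was at 6.40, 6.19, 8.52 and 11.7 against 6.50, 7.30, 8.09 and 9.26 and did not pass (difference 0.04, 95% interval -0.37 to 0.44, adjusted p = 0.896). Cxcl16 was at 0.871 ± 0.210 and 0.931 ± 0.311 and did not pass either (adjusted p = 0.870).

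Of the 23 listed chemokine receptors, Ackr3 alone passed the filter. This scavenging receptor of CXCL12 fell from 26.8 ± 1.19 to 20.2 ± 1.48 (difference -0.39, SE 0.06, adjusted p = 0.00126), with no overlap between groups. Cxcr4, the signalling receptor of the same ligand, was at most 0.183 scaled TPM in the knockout and 0.0894 in the reconstituted libraries.

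**Figure D2:**
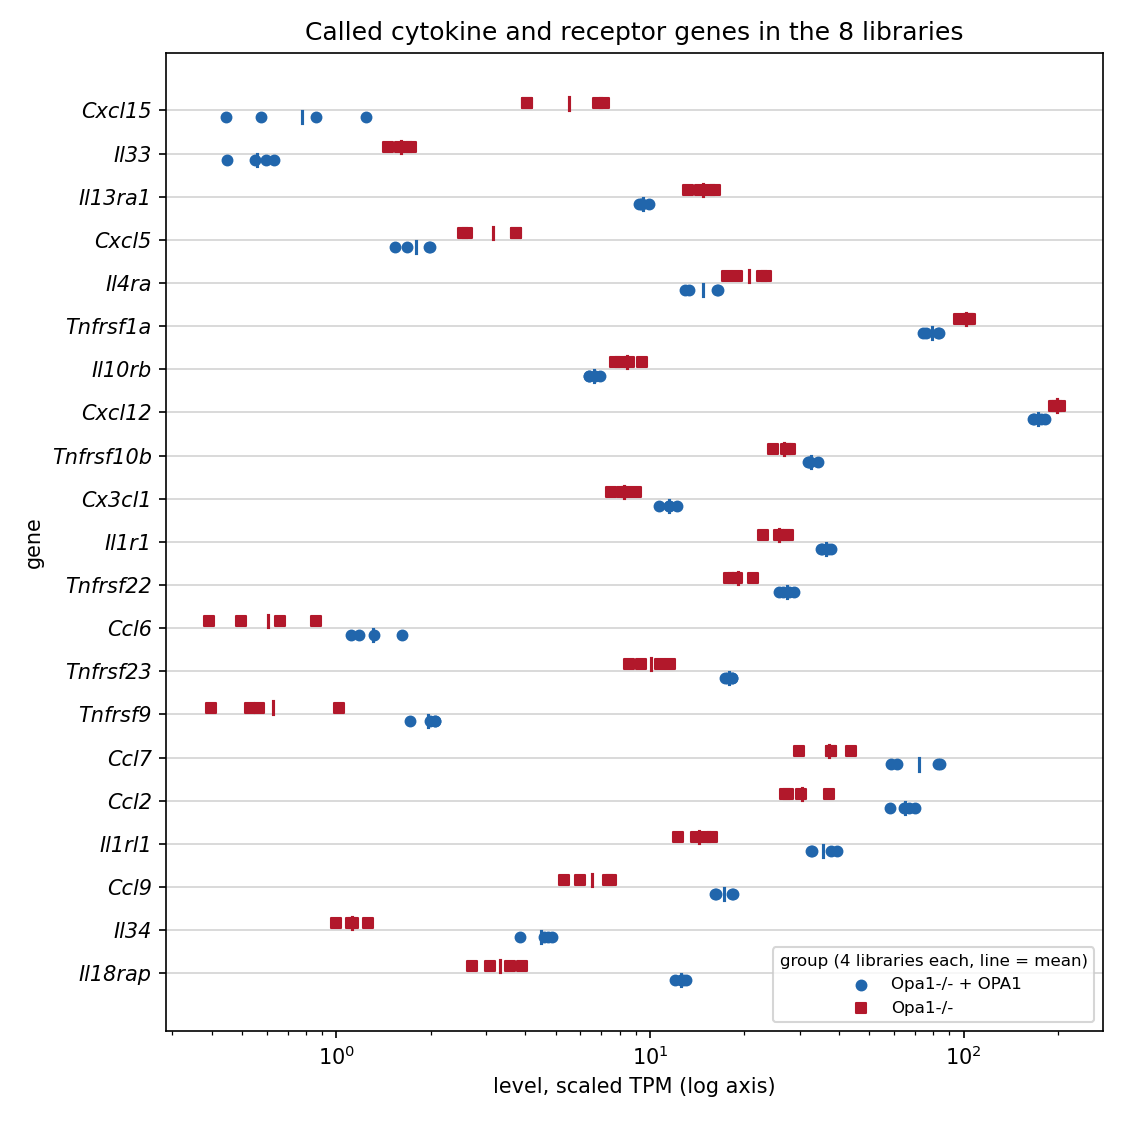
Level of each of the 21 called genes in every library (x axis, scaled TPM on a log axis), ordered on the y axis by the fitted difference. Squares are Opa1-/- libraries, circles Opa1-/- + OPA1 libraries, and the short lines are the group means. The squares and circles of each gene do not overlap, and levels run from under 1 (Ccl6, Tnfrsf9) to about 198 (Cxcl12). Only called genes are shown, and groups did not overlap in 36.3% of all tested genes. Ccl6, Tnfrsf9, Il33 and Cxcl15 passed the filter through 1 group only, so they had to differ.

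Of 6 interleukin genes, 1 rose and 1 fell (33.3% called, beside 33.0% of all tested genes). Without Il33, which passed the filter through the knockout group only, 1 of 5 fell and none rose. Il34, whose product is a second ligand of the CSF1 receptor, was at 1.11, 1.13, 0.995 and 1.26 in the knockout and at 4.86, 4.59, 3.85 and 4.72 in the reconstituted libraries. The highest knockout value was below the lowest reconstituted one (means 1.12 ± 0.110 and 4.50 ± 0.452, a mean of 41 and 166 reads, difference -1.37, SE 0.09, adjusted p = 2.11e-05). Csf1, named after its values were seen because it encodes the other ligand of that receptor, fell as well, from 179 ± 8.72 to 133 ± 11.4 (difference -0.42, SE 0.06, adjusted p = 0.00124). The receptor gene Csf1r stayed below the filter, at 0.299 to 0.580 in the knockout and 0.726 to 0.867 in the reconstituted libraries.

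Il33, an alarmin of the interleukin-1 family held in the nucleus, was at 1.68, 1.59, 1.73 and 1.46 in the knockout and at 0.634, 0.597, 0.551 and 0.447 in the reconstituted libraries. It rose without overlap (means 1.61 ± 0.115 and 0.557 ± 0.0811, 86 and 30 reads, difference 0.75, SE 0.10, adjusted p = 0.000607). Because Il33 passed the filter through the knockout group only, it had to differ. Il4, a T helper cytokine and the most abundant of the 6, was at 5.98, 3.96, 4.46 and 4.49 against 3.54, 3.56, 5.28 and 4.82. Its groups overlapped and it did not pass (difference 0.12, adjusted p = 0.574). Il11, a cytokine of the gp130 group that fibroblasts make, was at 2.65 ± 0.385 and 3.66 ± 0.719 (difference -0.35, adjusted p = 0.0595). Its adjusted p was 0.0271 with the replicate number as a block, 0.0308 without knockout library 4 and 0.0408 without reconstituted library 1. With chromosome medians removed it was 0.0252, and with exon length and GC trends removed 0.0411. Il15 was at 1.71 ± 0.238 and 2.17 ± 0.315 without overlap but did not pass (adjusted p = 0.135), and Il17d was at 1.66 ± 0.387 and 1.67 ± 0.275 (adjusted p = 0.969).

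The interleukin receptors, 15 chains and the binding protein Il18bp, held 3 genes that fell and 3 that rose (37.5% called, near the 33.0% of all tested genes), with a median of -0.07. The 3 that fell belong to the interleukin-1 receptor family and are neighbours on chromosome 1. Il18rap, the accessory chain of the interleukin-18 receptor, was at 3.57, 3.92, 3.09 and 2.70 in the knockout and at 13.0, 12.6, 12.7 and 12.0 in the reconstituted libraries. This was the largest fall of the 48 genes (means 3.32 ± 0.536 and 12.6 ± 0.406, difference -1.66, SE 0.09, adjusted p = 7.71e-06). Il18r1, the chain that binds interleukin-18, was below the filter at 0.0321 to 0.103 and 0.167 to 0.280.

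Il1rl1 encodes ST2, the receptor of interleukin-33. It was at 15.8, 15.1, 14.0 and 12.3 in the knockout and at 32.7, 32.8, 39.4 and 37.8 in the reconstituted libraries. It fell without overlap (means 14.3 ± 1.51 and 35.7 ± 3.42, difference -1.26, SE 0.09, adjusted p = 2.87e-05). Its ligand gene Il33 rose, but Il33 passed the filter through the knockout group only and so had to differ. Il1r1, the signalling receptor of interleukin-1, was at 27.0, 27.5, 25.8 and 22.9 against 37.8, 35.4, 36.9 and 35.1. Its fall was smaller, again without overlap (means 25.8 ± 2.07 and 36.3 ± 1.27, difference -0.48, SE 0.06, adjusted p = 0.000481). Il1rap, the co-receptor that ST2 and Il1r1 share, was at 2.30 ± 0.193 and 2.63 ± 0.139 and did not pass (difference -0.14, 95% interval -0.31 to 0.04, adjusted p = 0.221).

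The 3 receptor genes that rose all signal through JAK kinases. Il13ra1, which pairs with Il4ra to bind interleukin-4 and interleukin-13, was at 15.5, 16.1, 14.4 and 13.2 in the knockout and at 9.38, 9.93, 9.25 and 9.40 in the reconstituted libraries. The groups did not overlap (means 14.8 ± 1.30 and 9.49 ± 0.299, difference 0.59, SE 0.07, adjusted p = 0.000256). The gene is on the X chromosome, where the median difference of 301 genes was -0.36, and with chromosome medians removed its difference was 0.93. Il4ra rose from 14.8 ± 1.93 to 20.7 ± 2.93 (difference 0.46, SE 0.11, adjusted p = 0.0135). In both groups Il4ra was higher in libraries 1 and 2 than in 3 and 4. Il10rb, a chain shared by receptors of the interleukin-10 family, rose from 6.61 ± 0.262 to 8.43 ± 0.740 (difference 0.31, SE 0.07, adjusted p = 0.00789). It shares 14.9% of its exon length with Gm21970 on the same strand (mean 0.0 TPM). No source used here says how reads in the shared exons were assigned. Without both libraries numbered 3 the adjusted p was 0.0504 for Il4ra and 0.0546 for Il10rb.

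Il6st, which encodes the shared chain gp130 and was the most abundant interleukin receptor gene, was at 33.0, 29.5, 40.3 and 27.0 against 33.9, 34.0, 37.5 and 37.4. The groups overlapped and it did not pass (difference -0.15, 95% interval -0.39 to 0.10, adjusted p = 0.338), but without knockout library 3, its highest, the difference was -0.25 and passed. Il17rc, a chain of the interleukin-17 receptor, was at 31.2, 31.6, 33.1 and 31.2 against 30.0, 30.5, 29.7 and 29.5. Its groups did not overlap, yet the difference of 0.09 did not pass (adjusted p = 0.106). With chromosome medians removed it was 0.12 (adjusted p = 0.0425). The chain it pairs with, Il17ra, was at 9.15 ± 0.334 and 9.28 ± 0.193 (adjusted p = 0.809). The other 6 genes that did not pass were Il3ra (libraries at 16.7 to 21.9 and 19.5 to 20.6), Il11ra1 (6.05 ± 0.169 and 5.61 ± 0.252), Il6ra (3.33 ± 0.385 and 3.55 ± 0.0744), Il18bp (2.79 ± 0.814 and 2.98 ± 0.358), Il20rb (2.64 ± 0.190 and 2.21 ± 0.495) and Il27ra (1.87 ± 0.417 and 2.21 ± 0.537). With chromosome medians removed, Il11ra1 moved from 0.09 to 0.25 (adjusted p = 0.0114). Csf2rb, a signalling chain that pairs with Il3ra, was at most 0.0111 in any library.

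None of the 3 TNF ligand genes passed the test by limma, and 2 of them, Tnfsf11 and Tnfsf9, had an unadjusted p under 0.05. Tnfsf12, which encodes TWEAK and was the most abundant, was at 11.5, 13.9, 12.9 and 15.2 against 12.9, 11.6, 12.3 and 12.7 (difference 0.10, adjusted p = 0.371). Its groups overlapped, and 48.3% of its exon length is shared with the readthrough gene Tnfsfm13, so its reads are uncertain. Tnfsf9, the ligand of the receptor encoded by Tnfrsf9, was at 8.27, 8.45, 5.11 and 8.29 against 6.42, 5.96, 5.26 and 4.59 (difference 0.37, adjusted p = 0.0966). Knockout library 3 alone lay within the reconstituted range, and without it the difference was 0.52 (adjusted p = 0.00625). Tnfsf9 shares 14.9% of its exon length with Gm11110 on the other strand (mean 2.451 TPM), and no source used here says whether strand was kept. Tnfsf11, which encodes RANKL, was at 2.72 ± 0.206 and 2.08 ± 0.346 (difference 0.28, adjusted p = 0.0643). It passed with chromosome medians removed (0.45, adjusted p = 0.0126) and without reconstituted library 3 (0.34, adjusted p = 0.0483). Tnf itself was below the filter, at most 0.0629 in the knockout and 0.0984 in the reconstituted libraries.

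Of 12 TNF receptor genes, 4 fell and 1 rose, with a median of -0.19. The share called, 41.7%, or 36.4% without Tnfrsf9, which passed the filter through the reconstituted group only, is near the 33.0% of all tested genes. Tnfrsf12a, the TWEAK receptor Fn14, was the most abundant gene of all 48, at 1117, 1171, 917 and 1143 in the knockout and 1218, 1215, 1108 and 1138 in the reconstituted libraries. The groups overlapped and it did not pass (means 1087 ± 115 and 1170 ± 55.5, difference -0.11, 95% interval -0.29 to 0.07, adjusted p = 0.315). With exon length and GC trends removed its difference was -0.19 (adjusted p = 0.0402). Tnfrsf1a, the main receptor of TNF, was at 104, 105, 96.6 and 103 against 83.0, 83.7, 76.1 and 74.5. It rose without overlap (means 102 ± 3.80 and 79.3 ± 4.72, difference 0.36, SE 0.05, adjusted p = 0.000773). The second TNF receptor gene, Tnfrsf1b, was at 9.45 ± 0.751 and 10.6 ± 0.749 and did not pass (adjusted p = 0.141).

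Tnfrsf9 encodes 4-1BB, a co-stimulatory receptor best known on T cells. It was at 0.531, 1.02, 0.398 and 0.568 in the knockout and at 2.06, 2.06, 1.72 and 1.99 in the reconstituted libraries. It fell without overlap (means 0.628 ± 0.268 and 1.96 ± 0.163, 32 and 100 reads, difference -0.87, SE 0.13, adjusted p = 0.00113). Tnfrsf9 passed the filter through the reconstituted group only, so it had to differ, and no contrast with its ligand gene Tnfsf9 is drawn.

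All 3 membrane receptors of the death ligand TRAIL fell. Tnfrsf23, a mouse decoy receptor, was at 11.6, 10.8, 9.36 and 8.60 in the knockout and at 17.4, 17.6, 18.2 and 18.2 in the reconstituted libraries (means 10.1 ± 1.36 and 17.8 ± 0.429, difference -0.77, SE 0.08, adjusted p = 0.000222). Tnfrsf22, the second decoy, was at 21.3, 18.9, 18.4 and 17.9 against 27.8, 28.9, 26.6 and 25.8 (difference -0.49, SE 0.06, adjusted p = 0.000458). Tnfrsf10b, the receptor that signals death, was at 27.2, 24.7, 27.9 and 27.5 against 34.3, 32.5, 32.1 and 31.9 (difference -0.28, SE 0.05, adjusted p = 0.00261). None of the 3 overlapped between groups. Tnfrsf10b is on chromosome 14, where the median over 299 genes was -0.17, and with chromosome medians removed its difference was -0.11 and did not pass (adjusted p = 0.163). Tnfrsf22 and Tnfrsf23 are close copies, and no source used here says how reads that match both were assigned. The ligand gene Tnfsf10 was at most 0.0211 in any library.

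Tnfrsf11b, which encodes osteoprotegerin, the soluble decoy for RANKL, was at 56.3, 58.0, 45.1 and 39.5 against 48.0, 46.6, 44.5 and 42.9 (difference 0.11, adjusted p = 0.499). Its knockout libraries lay on both sides of the reconstituted range. Tnfrsf21, the death receptor DR6, was at 22.1, 20.4, 28.5 and 25.7 against 27.4, 28.2, 29.2 and 28.4 (difference -0.23, adjusted p = 0.0872). Without knockout library 3, its highest knockout value, the adjusted p was 0.0146. Tnfrsf11a, which encodes RANK, was at 8.09 ± 0.422 and 8.36 ± 0.327 (adjusted p = 0.597). The co-stimulatory receptors Tnfrsf4 (2.81 ± 1.07 and 2.22 ± 0.361) and Tnfrsf18 (1.33 ± 0.455 and 1.68 ± 0.0860) did not pass. Tnfrsf18 shares 27.2% of its exon length with Gm16008 on the other strand (mean 2.021 TPM). As no source used here says whether strand was kept, its reads are uncertain.

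Several of the genes lie next to each other, and neighbours were set side by side by a rule chosen after the values were seen (members within 500 kb, with tested genes up to 100 kb away). Coordinates are those of the GENCODE M21 annotation (assembly GRCm38, that is mm10). On chromosome 1, Il1r1 (chr1:40225080-40317257), Il1rl1 (chr1:40429570-40465415) and Il18rap (chr1:40515362-40551705) all fell, and no other tested gene lies there. On chromosome 11, Ccl2 (chr11:82035571-82037453) and Ccl7 (chr11:82045712-82047525) fell together, as did Ccl9 (chr11:83572919-83578636) and Ccl6 (chr11:83587882-83593087), beside Taf15, which rose (difference 0.35, adjusted p = 0.00867). The CXC cluster on chromosome 5 was mixed: Cxcl5 (chr5:90759360-90761624) and Cxcl15 (chr5:90794534-90803067) rose, while Cxcl1 (chr5:90891241-90893115) did not pass. On chromosome 7, Tnfrsf22 and Tnfrsf23 fell beside Cars, which rose (difference 0.56, adjusted p = 0.00115), and Nap1l4 and Osbpl5, which did not pass (adjusted p = 0.895 and 0.0663). Tnfrsf4 and Tnfrsf18 on chromosome 4 did not pass. Ccl6 and Cxcl15 passed the filter through 1 group only, so they had to differ, and their direction beside their neighbours lends no weight.

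**Figure D3:**
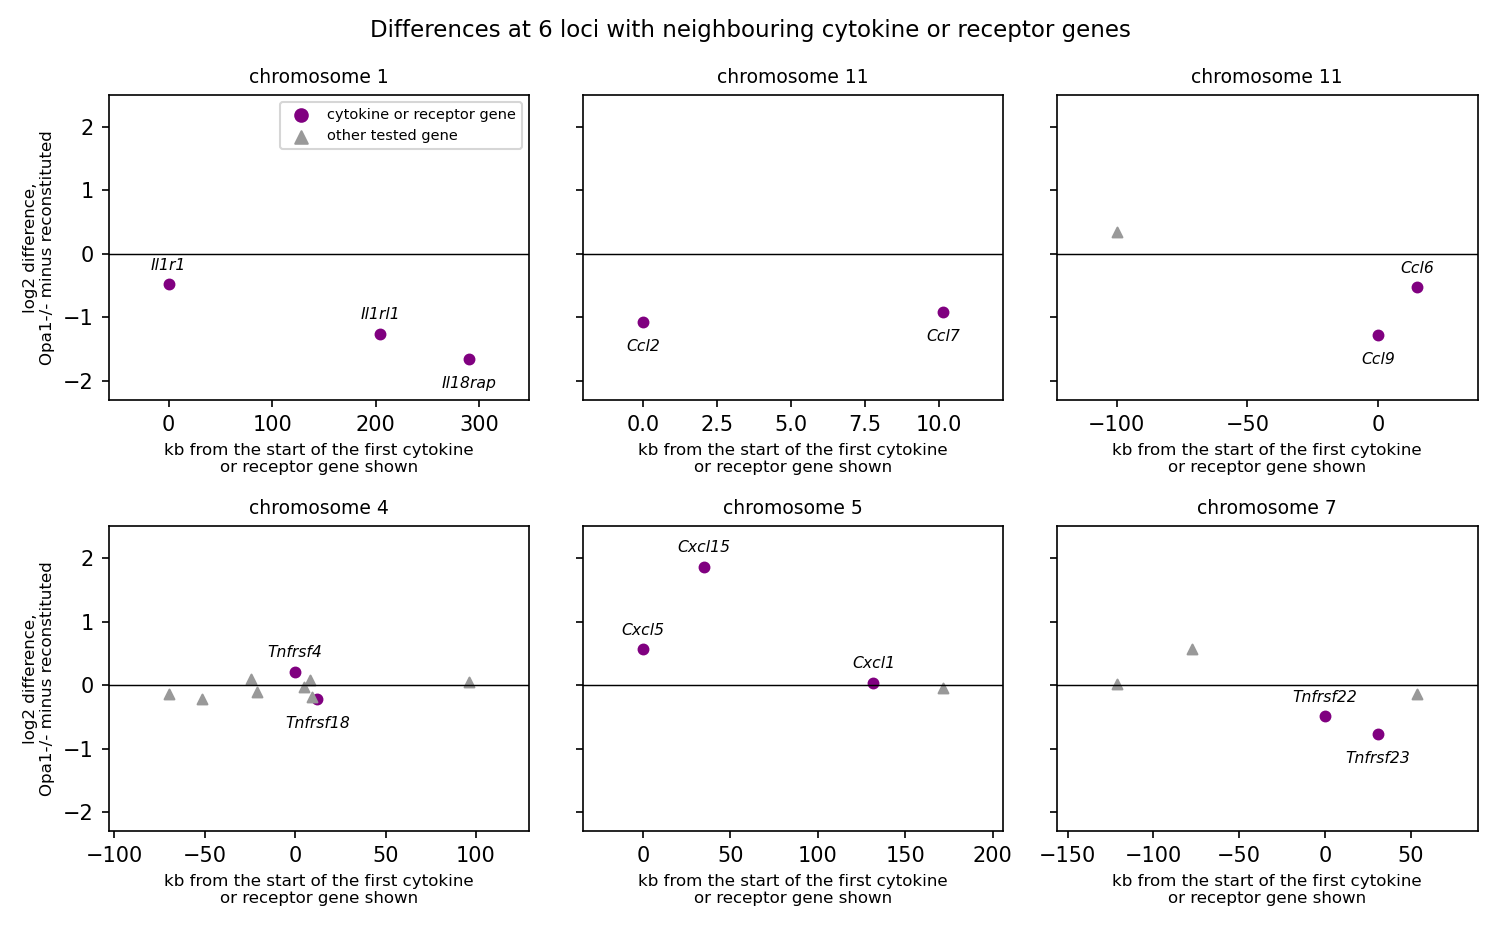
Difference (y axis, log2(scaled TPM + 1), Opa1-/- minus Opa1-/- + OPA1) against the distance from the start of the left-most cytokine or receptor gene (x axis, kb) at 6 loci. Circles are genes of the 48 and triangles other tested genes. The chromosome 1 and both chromosome 11 groups lie below 0, while on chromosome 5 Cxcl15 (1.86) and Cxcl5 (0.56) lie above it. Ccl6 and Cxcl15 passed the filter through 1 group only, so they had to differ.

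Genes that act in the same pathways under other names were taken as lists. Those just inside TNF and interleukin-1 receptors (TRAF and TIR adaptors, RIP kinases, ubiquitin enzymes) gave 27 tested genes, of which 4 rose and 8 fell (44.4% called, beside 33.0% of all tested genes), with a median of -0.04. Traf1, an adaptor that TNF receptors such as 4-1BB recruit, fell from 3.25 ± 0.307 to 1.11 ± 0.149 (difference -1.01, SE 0.09, adjusted p = 0.000105). The deubiquitinase Cyld fell from 21.8 ± 0.548 to 15.9 ± 1.40 (difference -0.43) and Traf3, a brake on non-canonical NF-kappaB signalling, from 32.7 ± 0.846 to 24.6 ± 2.87 (difference -0.40). The most abundant gene, the deubiquitinase Otulin, was at 72.8 ± 7.86 and 68.7 ± 3.37 and did not pass. Without knockout library 3, or without reconstituted library 1, 2 or 4, the count that rose was 2. On TPM as deposited 2 rose and 5 fell. Without both libraries numbered 3, the count that fell was 5, and with chromosome medians removed it was 4.

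NF-kappaB subunits, kinases and inhibitors were mostly lower in the knockout cells: of 17 tested, 10 fell and 2 rose (70.6% called, beside 33.0% of all tested genes), with a median of -0.16. Tnfaip3, which encodes the feedback inhibitor A20, was at 16.0, 15.0, 18.1 and 15.5 in the knockout and at 32.7, 32.9, 32.4 and 32.8 in the reconstituted libraries (difference -0.98, SE 0.06, adjusted p = 1.08e-05). The inhibitor gene Nfkbie fell from 44.9 ± 2.55 to 25.1 ± 3.15 (difference -0.82, SE 0.08, adjusted p = 0.000168). Nfkb2, the subunit of the non-canonical arm and the most abundant of the list, fell from 215 ± 14.7 to 135 ± 14.2 (difference -0.67, SE 0.08, adjusted p = 0.000325). The subunit gene Rela, named after its values were seen, was at 105 ± 4.14 and 109 ± 0.970 and did not pass. The 2 that rose were Bcl3, a nuclear cofactor (difference 0.48), and Ikbkg, the kinase scaffold (difference 0.26), also named after their values were seen. On TPM as deposited 6 of the list fell. The count that rose was 1 on TPM as deposited and without any of the libraries other than knockout library 4. The list has several genes that NF-kappaB itself is known to induce.

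Of 25 tested genes of the JAK-STAT list, 10 rose and 3 fell (52.0% called, beside 33.0% of all tested genes, 16.3% higher and 16.8% lower), and the median was 0.00. Socs2, a feedback inhibitor, rose from 2.08 ± 0.233 to 5.40 ± 0.816 (difference 1.05, SE 0.11, adjusted p = 0.000156). Stat5a rose from 2.28 ± 0.172 to 4.05 ± 0.317 (difference 0.62) and the phosphatase gene Ptpn6 from 2.23 ± 0.256 to 3.95 ± 0.557 (difference 0.61). The most abundant gene, Socs5, fell from 98.1 ± 2.84 to 80.7 ± 7.17 (difference -0.28, adjusted p = 0.00867). On TPM as deposited 6 of the list rose.

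**Figure D4:**
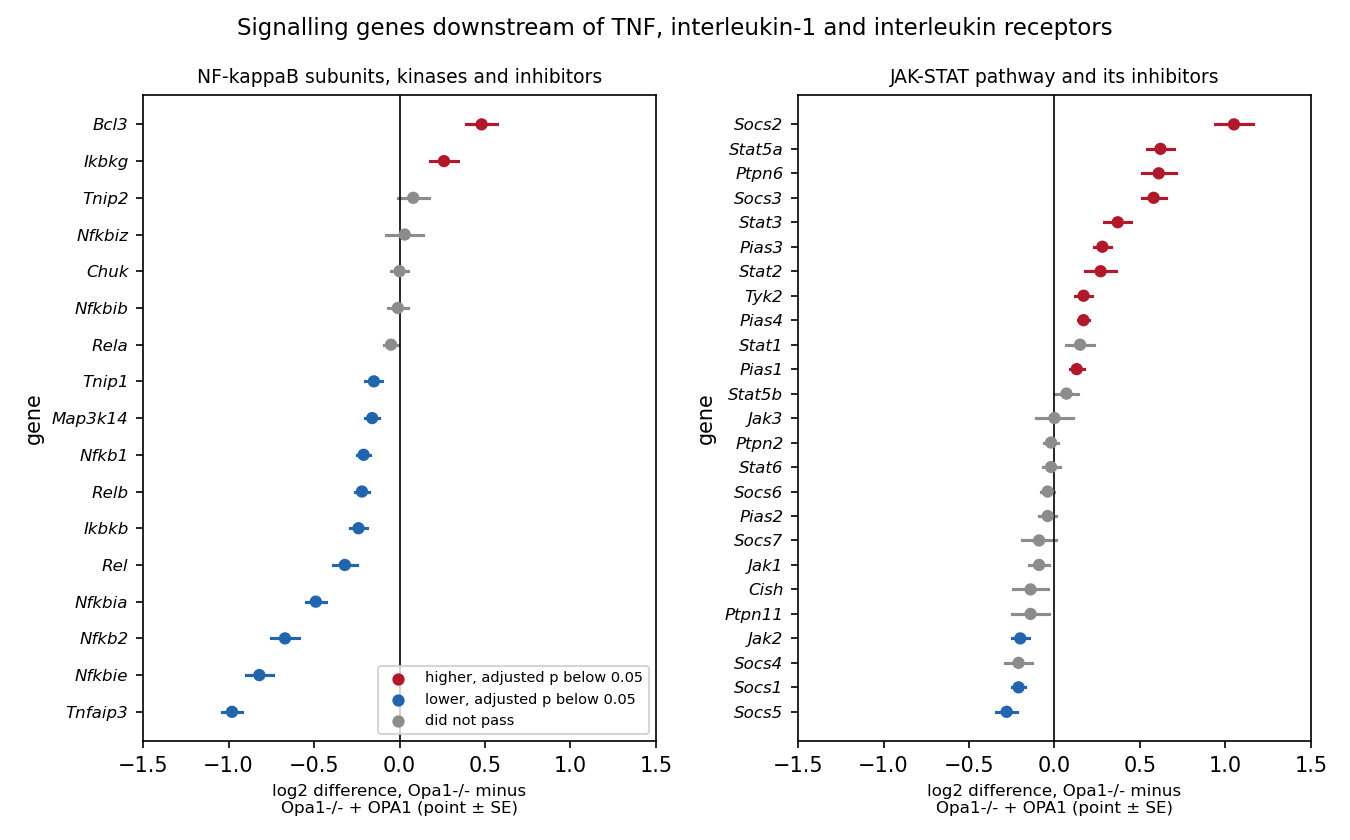
Differences (x axis, log2(scaled TPM + 1), Opa1-/- minus Opa1-/- + OPA1, point ± SE, 4 libraries per group) of the tested genes (y axis) of the NF-kappaB list, on the left, and the JAK-STAT list, on the right. In the NF-kappaB list 10 genes lie on the lower side at adjusted p below 0.05, led by Tnfaip3 (-0.98), and in the JAK-STAT list 10 lie on the higher side, led by Socs2 (1.05).

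Among gp130 and colony-stimulating cytokines and their receptors under other names, 12 were tested, of which 5 rose and 3 fell (66.7% called, beside 33.0% of all tested genes, and a median of 0.09). Csf2ra, the binding chain of the GM-CSF receptor, rose from 1.47 ± 0.131 to 5.02 ± 0.920 (difference 1.28, SE 0.11, adjusted p = 8.75e-05). Osmr, the oncostatin M receptor, rose from 4.26 ± 0.348 to 7.55 ± 1.13 (difference 0.69) and Ctf1, a gp130 cytokine, from 8.19 ± 0.672 to 13.5 ± 0.371 (difference 0.66). Mif, a cytokine with no relation to these in structure and the most abundant of the list, rose from 1254 ± 29.7 to 1606 ± 142 (difference 0.35, adjusted p = 0.00282).

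TNF family members whose names do not follow the family's numbering gave 4 tested genes of 16, of which 3 were called (75.0%, beside 33.0% of all tested genes). Fas, a death receptor, fell from 16.3 ± 2.32 to 10.3 ± 3.04 with overlapping groups (difference -0.64, SE 0.18, adjusted p = 0.0217), and the X-linked receptor gene Eda2r fell from 1.85 ± 0.347 to 1.10 ± 0.240 (difference -0.44, adjusted p = 0.0239). Ltbr, the lymphotoxin receptor and the most abundant, rose from 117 ± 5.34 to 130 ± 5.59 (difference 0.14, adjusted p = 0.0400). These calls were not firm. Without knockout library 1, without knockout library 2, and without reconstituted library 3 or 4, none of the 3 passed. Ltbr also failed without knockout library 3 or reconstituted library 2. With chromosome medians removed Eda2r was at -0.10 and did not pass.

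Markers of fibroblasts and of other cell types were set beside these groups, and their part in the results was not tested. Of the 10 tested fibroblast markers 6 fell and 1 rose (70.0% called, beside 33.0% of all tested genes, of which 16.8% fell), and the summed list was 2756 to 3052 in the knockout against 3217 to 3282 in the reconstituted libraries. The endothelial list summed to 0.786 to 1.17 against 2.73 to 2.96, of which most was Flt1 (0.619 ± 0.113 and 2.54 ± 0.0832, difference -1.13, adjusted p = 5.89e-05). Flt1 passed the filter through the reconstituted group only, so it had to differ and lends no weight. The defining marker Cdh5 was at most 0.0396 in any library. The epithelial list summed to 177 to 213 against 144 to 208, of which most was Krt18 (170 ± 16.5 and 165 ± 29.4), which did not pass. The other 2 of 3 tested genes were higher, beside 16.3% of all tested genes. Krt8 rose from 2.20 ± 0.258 to 4.61 ± 0.688 (difference 0.80, adjusted p = 0.000590). Cdh1 rose from 8.10 ± 0.907 to 12.9 ± 1.76 (difference 0.61, adjusted p = 0.00206), and neither gene overlapped between groups. Of the 3 tested leukocyte and macrophage genes, Cd14 fell (difference -0.33, adjusted p = 0.0332) but lost its call without any of 5 libraries in turn (knockout library 4 and each reconstituted library).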

How the data were processed

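Libraries of 8 MEF samples were compared, 4 per group by the labels' genotype. Per the labels' protocols, RNA came from an RNeasy Plus extraction and libraries from the NEBNext Ultra II kit for RNA. Per the file headers, the values the authors deposited are TPM, for 49315 genes in each library, with a sum of 1000000. The tools named are STAR 2.5.2b, Subread 1.5.2, featureCounts and bcl2fastq 2.17, with the builds mm10 and GRCh38 and no roles, per the submitters' processing notes. No source used here gives the strand setting.

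As TPM are not counts, no count test was run. Depth was recovered from the steps of TPM times exon length (GENCODE M21), of which 93.8% to 94.8% of low values were whole within 0.05 of a read. Tested genes reached 1 TPM in 4 libraries or more. Scaling between libraries used trimmed means of log ratios (trims of 30% by ratio and 5% by level, unweighted). The model for log2(scaled TPM + 1), with its variance trend, came from limma 3.58.1 under R 4.3.3. The steps were tested on simulated data. Python 3.11.15 with pandas 2.3.3, numpy 2.4.6 and scipy 1.17.1 did the rest, and matplotlib 3.10.9 the figures.

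The genes and lists were chosen with earlier results of these data known. Values in every library are given for genes with a mean of at least 20 scaled TPM, called genes with a difference of at least 0.5 and the most abundant gene of each role. From each list up to 3 called genes of largest change and the most abundant gene are named. Every pair of libraries of a group differed by more than counting noise (chi-square per degree of freedom at least 4.73), so all 8 were kept. Knockout library 4 lay furthest from its group, with pairs at 43.44, 33.39 and 47.44. The other knockout pairs were at 7.83 to 24.28, and the reconstituted pairs at 4.73 to 25.95. Without knockout library 4, 2640 of all tested genes were higher and 2771 lower, against 2322 and 2392 with it. Why it differed was not tested. Same-numbered libraries of the groups deviated together from their group means (Pearson r 0.12 to 0.32 across 9416 genes, which are not independent replicates, beside -0.32 to 0.11 for other pairs), and the labels do not say what a number marks. Alternatives were TPM as deposited, upper-quartile scaling, other pseudocounts and filters, robust variances, a replicate block, libraries left out, chromosome medians removed, and exon length and GC trends removed. Promoter sequences are from RefSeq (GRCm38.p6). Protein sequences were not used here.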

Additional observations from a re-analysis of the deposited data

Results flagged for a closer look

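Of 96 groups of 4 libraries tested for a sample far from the others (the 48 genes in both groups), 2 held one, where chance gives about 1 in 20. Tnfsf9, the 4-1BB ligand gene, was at 5.11 scaled TPM in knockout library 3, against 8.27 to 8.45 in the other 3 knockout libraries. Il15 was at 2.64 in reconstituted library 4, against 1.97 to 2.04 in the other 3 reconstituted libraries.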

How the results depend on the processing

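Under 19 alternatives the genes called numbered 7 to 11 higher and 12 to 15 lower, against 8 and 13, and 16 of the 21 called genes kept their call under every alternative that tested them (a mean of 1 TPM as the filter leaves Ccl6 out). Counts without the 4 genes that passed through 1 group only were added after seeing the data. The 5 that did not were Ccl6, Il10rb, Il4ra, Cxcl12 and Tnfrsf10b, and 8 genes not called passed under at least 1 alternative. The replicate block gave 8 higher and 14 lower, added Il11 and changed no other call among the 48. On TPM as deposited the genes of the other lists that rose numbered 14 against 22, and all tested genes that fell numbered 1529 against 2392. No difference of a called gene changed sign. With chromosome medians removed, Ccl25 turned to 0.03, Cxcl1 to -0.02, Il17d to 0.16, Il27ra to 0.03, Il3ra to 0.11, Il17ra to 0.02 and Tnfrsf1b to 0.01. With exon length and GC trends removed, Il17ra turned to 0.04, Tnfrsf11a to 0.02 and Krt18 to -0.03, and without both libraries numbered 3 Il17d turned to 0.03. With 1 library left out in turn, the differences that changed sign ran over these ranges: Cxcl16 -0.12 to 0.04, Cxcl1 -0.13 to 0.14, Il17d -0.08 to 0.10, Il18bp -0.22 to 0.01, Vim -0.01 to 0.06, Krt18 -0.04 to 0.14.
The causes were not tested. Depth was lowest for genes near 1 TPM, with as few as 13 reads in a library for Ccl6.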

Other observations

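Of the 105 genes below the filter, 82 were above 0 in at least 1 library, and in 9 of these the libraries of the groups did not overlap, beside 6.57% of all genes below the filter and above 0. They were named after their values were seen and have no test. Il18, the cytokine that acts through Il18rap, was at 0.473 to 1.05 scaled TPM in the knockout and 0.101 to 0.366 in the reconstituted libraries, opposite in direction to its receptor chain. Il15ra, which presents interleukin-15, was at 0.560 to 0.837 against 0.294 to 0.448, and Cxcl17, a mucosal chemokine, at 0.712 to 1.46 against 0.418 to 0.565. Ccl8, which lies near Ccl2 and Ccl7, was at 0 to 0.108 against 0.512 to 0.738. Tnfsf18, the ligand of the receptor encoded by Tnfrsf18, was at 0 to 0.0499 against 0.228 to 0.338. Il17rd was at 0.295 to 0.514 against 0.575 to 0.742, and Il1rapl1 at 0.136 to 0.238 against 0.242 to 0.415. Il17re was at 0.0284 to 0.0830 against 0 to 0.0183, and Il18r1, given above, was the ninth.

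Well-known inflammatory cytokine genes stayed low in both groups. Il6 was at 0.0458 to 0.170 against 0.111 to 0.199, and Il1a at 0.0840 to 0.192 against 0 to 0.164. Il1b was above 0 in a single knockout library, at 0.0583. Il2rg, the chain shared by several interleukin receptors, was at 0.0216 to 0.136 against 0.0219 to 0.0676.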
